A study of Mus musculus with 12 samples.

Results

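Endothelial cells of skin lymphatic capillaries were compared with endothelial cells of the blood vessels of the same tissue, across all genes of a whole-transcript microarray. The comparison rests on 6 of the study's 12 arrays, chosen by their titles: 3 of capillary lymphatic endothelial cells (cap LEC) and 3 of blood endothelial cells (BEC). Both groups came from ear skin of C57BL6 mice, with no treatment named in the labels and with the age given as 5 weeks old in the design and as adult in the sample labels. All animals, those that gave BEC included, carried the reporter Tg(Prox1-EGFP)KY221Gsat, in which regulatory sequence of Prox1 drives a green fluorescent protein. Cells were enriched on beads against PECAM1 and live cells were then sorted: cap LEC carried podoplanin, the Prox1 reporter and high LYVE1, and BEC carried PECAM1 but neither podoplanin, reporter nor LYVE1. The BEC gate took arterial, capillary and venous cells together. The remaining 6 arrays hold LEC with intermediate LYVE1 (pre-col LEC) and LEC with low or no LYVE1 (col LEC), 3 each; they entered the fit and are quoted only beside results of the main comparison. From each sample 500 pg of RNA was amplified, a small input. The labels call the arrays biological replicates without saying whether each was 1 mouse or a pool, so the p-values measure the spread between these samples.

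Lymphatic capillaries are blind-ended vessels that take up tissue fluid, macromolecules and immune cells and pass them to collecting vessels. Their endothelium arises mainly from veins, and its identity depends on the transcription factor PROX1 and on signalling of VEGF-C through the receptor VEGFR-3, encoded by Flt4. Blood endothelium instead holds a continuous junctional barrier under pressure, rests on a full basement membrane with pericytes, delivers lipids, glucose and oxygen, and recruits leukocytes through selectins in venules.

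Levels are the deposited log2 RMA values, and a difference is the cap LEC mean minus the BEC mean on that log2 scale, with limma's standard error. A gene was called when its limma p, adjusted by the Benjamini-Hochberg method over all 19673 genes tested, was under 0.05. Of these genes 4050 were called (20.6%), 2174 higher in cap LEC (11.1%) and 1876 lower (9.54%). When each array was centred on its median, the split of the 4420 calls became 2993 higher and 1427 lower, so the share of higher calls depends on the scaling. The median difference over all genes was -0.026. Most calls were modest: the median difference was 0.58 among the higher genes and -0.67 among the lower ones, and the smallest called was 0.21 in size. At least 2-fold differences were called for 1080 genes (5.49%), 477 higher (2.42%) and 603 lower (3.07%). Past 4-fold there were 146 higher and 204 lower genes, past 16-fold 16 and 31, and past 64-fold 2, Lyve1 and Tc2n, and none lower. The 3 arrays of one group did not overlap with those of the other for 7422 genes (37.7%), 3570 higher (18.1%) and 3852 lower (19.6%) in cap LEC. A gene was tested when it lay above the array's median transcript cluster on at least 3 of the 12 arrays. A gene high in 1 group alone could therefore pass. Each list below is counted over its tested members. The background for these counts is the share over all genes tested, 11.1% higher and 9.54% lower, and no list was tested against it. Among 15331 rows that name no gene or several, fitted apart, 1123 were called (7.33%).

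**Figure D1:**
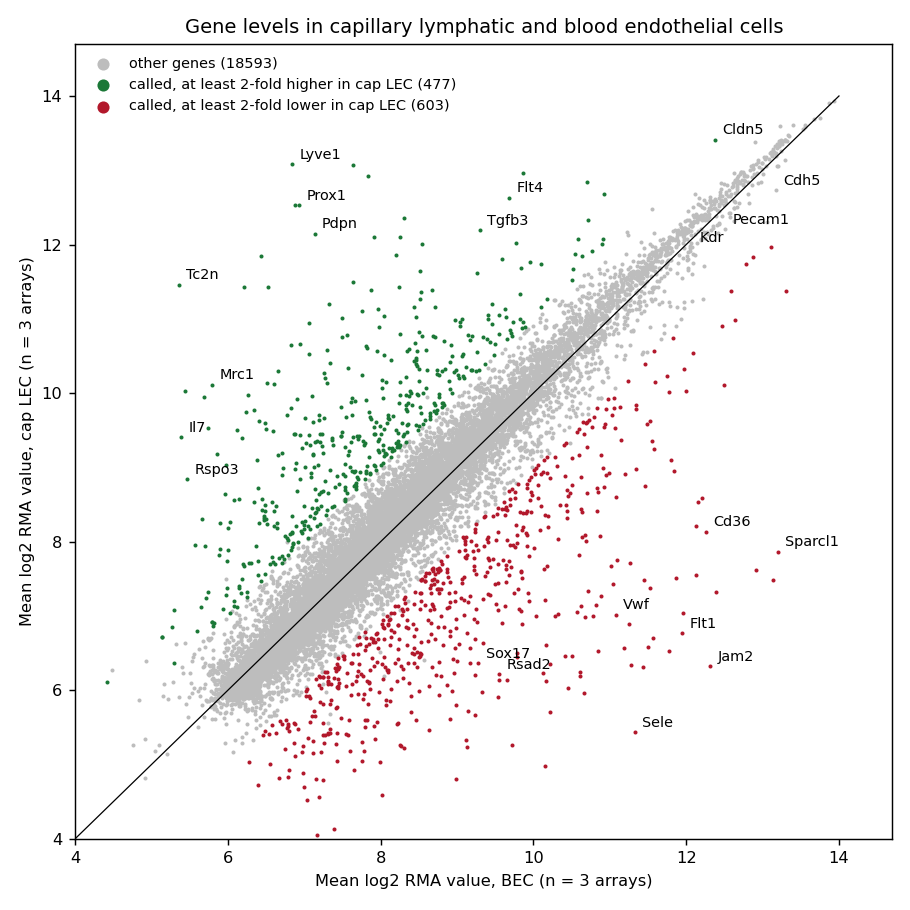
Mean log2 RMA value of each of the 19673 genes tested in BEC (x axis) and cap LEC (y axis), 3 arrays each. The line marks equal levels, green points the 477 genes called and at least 2-fold higher in cap LEC and red points the 603 lower. Of the pan-endothelial genes Cdh5, Pecam1 and Kdr lie close to the line, but 19 of the 30 tested were called lower in cap LEC (list median -0.60).

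The sort genes matched the gates and, since they chose the cells, are no finding. Lyve1 read 13.05, 13.04 and 13.15 in cap LEC and 7.30, 6.65 and 6.57 in BEC, Prox1 differed by 5.60 ± 0.20 (SE) and Pdpn by 5.01 ± 0.12, while Pecam1, used to enrich both groups, differed by -0.30 ± 0.07 (adjusted p = 0.011, and 0.076 with the 6 arrays fitted alone). None of the 30 tested pan-endothelial genes lay at or below the array median on all 3 arrays of either group. At or below the 95th percentile of the negative control rows on all 3 arrays lay 8 of them in cap LEC and 1 in BEC. Their mean level was 10.11 to 10.14 in cap LEC and 11.05 to 11.14 in BEC. Over the rows that passed the filter, arrays correlated at 0.983 to 0.988 within cap LEC, 0.971 to 0.980 within BEC and 0.904 to 0.919 between them. In 2 arrays genes of other cells were raised. The first BEC array carried more of several lymphatic genes: Mmrn1 read 9.84 there against 6.55 and 6.52, Reln 7.81 against 6.31 and 6.54, and Sema3d 7.49 against 5.44 and 6.39. The first cap LEC array carried more blood capillary, pericyte and antigen-presenting cell RNA: Fabp4 read 7.88 there against 6.09 and 5.79, Rgs5 8.75 against 6.67 and 7.04, and H2-Eb1 9.18 against 7.20 and 7.40. Several of the results that these arrays affect are also given without them, but not all. By limma's array weights, in which a lower weight marks an array further from its group's fit, the lowest were the third BEC (0.351), the first BEC (0.473) and the third cap LEC array (0.688), and leaving out the third cap LEC array gave the fewest calls, 2979.

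Markers of mural cells, the pericytes and smooth muscle cells that wrap blood vessels, moved with the groups. All 13 listed were tested, of which 12 were lower in cap LEC and none higher, and their mean level was 7.18 ± 0.28 (SD, n = 3) in cap LEC against 9.24 ± 0.11 in BEC. Pdgfrb, a pericyte receptor, read 7.62, 6.76 and 6.61 in cap LEC and 10.98, 10.86 and 10.50 in BEC, a difference of -3.78 ± 0.35 (adjusted p = 8.06e-06). For Rgs5, another pericyte gene, the difference of -3.96 ± 0.61 became -4.59 without the first cap LEC array. Fewer cells of a type and less RNA of that type per cell cannot be told apart in such sorted bulk samples. Of the markers of other cells, 4 of 10 fibroblast markers were lower in cap LEC (2 without the second or the third array of either group). Lower too were 3 of 8 keratinocyte markers (5 without the first BEC array, and 2 without the second or the third cap LEC or the third BEC array). The same held for 3 of 6 platelet and erythrocyte markers (1 without the second or the third cap LEC array and none without the third BEC array). None of 4 B cell and 4 melanocyte markers was called. T and innate lymphoid markers were called in both directions (2 of 7 higher, 1 lower). So were Schwann cell (2 of 6 higher, 1 lower) and adipocyte markers (1 of 6 higher, 1 lower). Lower were 2 of 8 dendritic and Langerhans markers (1 without the second or the third array of either group). Skeletal muscle markers were lower for 2 of 9. Of 7 neutrophil markers 1 was lower (none without the third array of either group). Of 3 mast cell markers 1, described below, was lower. Of 10 macrophage markers Mrc1 was higher, as described below, and C1qa lower at -0.32 ± 0.09. The part of these cells in the results below was not tested.

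After the sort gene Lyve1, Tc2n had the largest difference towards cap LEC. Tc2n, a C2-domain protein, read 11.39, 11.47 and 11.51 in cap LEC and 5.66, 5.65 and 4.76 in BEC, a difference of 6.10 ± 0.19 or 68.5-fold (adjusted p = 1.27e-09). Its BEC levels lay below the array medians of 6.10 to 6.17, so the fold is compressed by the low end of the scale. Reln encodes reelin, a large secreted guidance protein. It read 12.55, 12.52 and 12.52 against 7.81, 6.31 and 6.54, a difference of 5.65 ± 0.29 (6.11 without the first BEC array). Mmrn1, a secreted multimeric matrix protein, differed by 5.43 ± 0.65 (adjusted p = 6.69e-05) and by 6.53 without that array. Sema3d, a secreted semaphorin, differed by 5.41 ± 0.35 (5.93 without it), and Pard6g, a cell polarity adaptor, by 5.09 ± 0.21. Further down followed Maf (4.91 ± 0.12), Pkhd1l1 (4.58 ± 0.20), Mrc1 (4.32 ± 0.15), Tnfaip8l3 (4.26 ± 0.11), Abi3bp (4.20 ± 0.17), Fgl2 (4.04 ± 0.12) and Il7 (4.01 ± 0.09). Il7 encodes interleukin 7, a survival factor for lymphocytes. It read 9.31, 9.33 and 9.57 in cap LEC and 5.40, 5.28 and 5.49 in BEC (adjusted p = 1.44e-10). Its BEC levels too lay below the array medians, where RMA pulls values together, so a small spread there is no measure of reproducibility. Kbtbd11, with 2.82 ± 0.08, was among the 5 higher genes with the largest moderated statistic together with Pdpn, Maf, Tnfaip8l3 and Il7.

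Towards BEC, Jam2 and Sele had the largest differences among the genes ranked, those called without overlap between the groups. Predicted genes, small RNAs, sensory receptors and immune receptor segments were left out of the ranking. Jam2, a junctional adhesion molecule, read 12.53, 12.35 and 12.06 in BEC and 6.87, 6.01 and 6.08 in cap LEC, a difference of -5.99 ± 0.36 (adjusted p = 1.69e-07). Its last 2 cap LEC values lay at about the array median, the low end of the scale, where RMA compresses differences. Sele, the endothelial selectin that slows rolling leukocytes, read 11.69, 11.06 and 11.24 against 5.46, 5.55 and 5.30 (-5.90 ± 0.32). All 3 cap LEC values of Sele lay below their array medians. Ly6c1 (-5.29 ± 0.36) and Ly6c2 (-5.65 ± 0.59) are near-identical copies whose probes cannot be separated with certainty. Sparcl1, a secreted matrix-associated protein that pericytes also make, differed by -5.34 ± 0.73 (-5.89 without the first cap LEC array). Flt1, the decoy and signalling receptor of VEGF-A, differed by -5.18 ± 0.26, Kitl, the ligand of the KIT receptor, by -5.12 ± 0.35, and Aplnr, the apelin receptor, by -5.06 ± 0.23. Cxcr4, Lims2, Fabp4, Aqp7, Entpd1, Apln and Tmem255b completed the 15 largest of this ranking, with differences from -4.94 to -4.57. Of the genes ranked, the smallest spread relative to its size belonged to Scarb1, the receptor for high-density lipoprotein. It read 12.12, 12.18 and 12.08 in BEC and 8.29, 8.14 and 8.19 in cap LEC (-3.92 ± 0.08, adjusted p = 8.37e-11). Slc28a2, a nucleoside transporter (-3.42 ± 0.08), Papss2, which makes the sulfate donor of the cell (-4.42 ± 0.09), Sp100, a nuclear body protein (-4.51 ± 0.13), and Pik3c2b, a phosphoinositide kinase (-2.93 ± 0.09), had comparably tight differences.

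**Figure D2:**
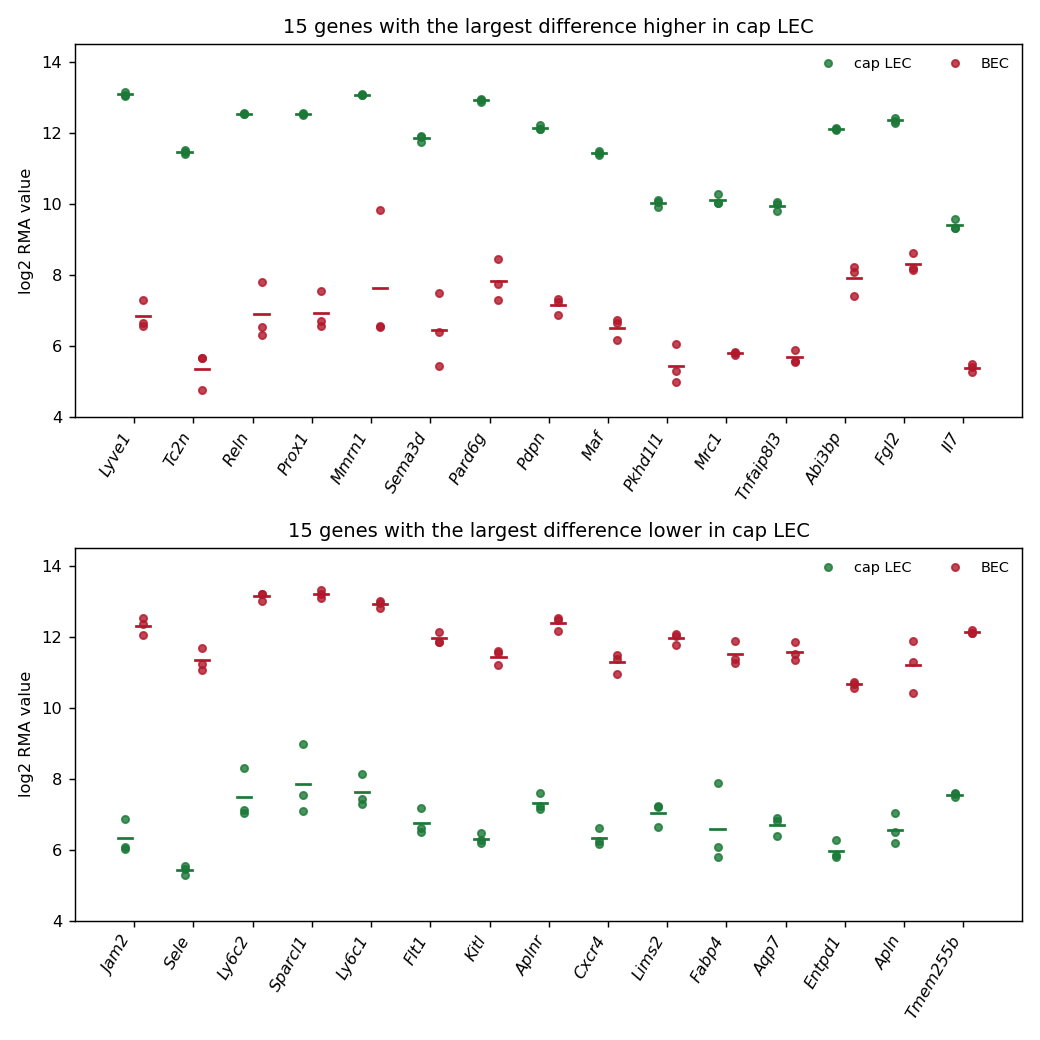
Log2 RMA values on each array for the 15 genes with the largest differences higher (top) and lower (bottom) in cap LEC; points are the 3 cap LEC (green) and 3 BEC (red) arrays and bars are group means. The 30 genes were drawn from those called without overlap between the groups, so the lack of overlap follows from that choice. The first BEC array lifts the BEC mean of Mmrn1, and the first cap LEC array lifts the cap LEC mean of Fabp4.

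Of 20 genes of lymphatic identity listed, 19 were tested and 18 were higher in cap LEC, with a median difference of 3.12, and that median was 3.30 without the first BEC array. The list includes the sort genes and was drawn up with earlier results of these data known. Flt4, encoding VEGFR-3, read 12.51, 12.67 and 12.72 in cap LEC and 9.64, 9.57 and 9.84 in BEC, so its transcript was well measured in both groups and differed by 2.95 ± 0.11. Piezo2, a stretch-gated channel, differed by 3.50 ± 0.18, Klhl4 by 3.12 ± 0.29, Fxyd6, a regulator of the sodium pump, by 2.72 ± 0.09, and the scavenger receptor gene Stab1 by 1.93 ± 0.13. Nrp2, the neuropilin that binds VEGF-C, differed by only 0.70 ± 0.17 (adjusted p = 0.0128, 0.0563 without the third cap LEC array and 0.0528 without the third BEC array). Sox18, which switches on Prox1 in the embryo, was the exception at 0.04 ± 0.14.

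Among 18 transcription factors tied to lymphatic development 10 were higher and 2 lower. Prox1 and Maf led them, and Foxp2 was next at 1.89 ± 0.10. Nr2f2, the vein and lymphatic factor COUP-TFII that acts with PROX1, read 11.59, 11.74 and 11.72 in cap LEC and 9.95, 10.08 and 9.48 in BEC, a difference of 1.84 ± 0.13 (adjusted p = 8.34e-07). Nfatc1, a calcium-regulated partner in valve formation, differed by 1.29 ± 0.08, Tbx1 by 1.14 ± 0.08 and the valve factor Foxc2 by 0.83 ± 0.14. Tbx3 (-1.44 ± 0.09) and the BMP target Id1 (-0.94 ± 0.10) were lower. Of 28 factors tied to blood endothelium 11 were lower and 5 higher (2 without the second or the third cap LEC array). Sox17, an arterial factor, read 9.33, 9.39 and 9.12 in BEC and 6.49, 6.40 and 6.21 in cap LEC (-2.91 ± 0.13). Its relative Sox7 differed by -1.03 ± 0.09, so the 3 members of this SOX family had 3 different outcomes: strongly lower, moderately lower and, for Sox18, no call. Meox2, a factor for fatty acid transport in capillaries (-1.77 ± 0.15), Heg1, a junctional receptor that stands on the list without being a transcription factor (-1.73 ± 0.10), and Epas1, which encodes HIF-2 alpha (-1.14 ± 0.08), were lower as well. Erg, Klf2, Klf4 and Gata2 were not called, with differences between -0.34 and 0.09.

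The lists of blood vessel types held more lower than higher genes. The blood capillary list, with 22 of 24 genes tested, had 20 lower and none higher (median -2.27, and -2.39 without the first cap LEC array). Apln, the ligand, and Aplnr, its receptor, were both lower, as were Cd36, a fatty acid receptor (-4.12 ± 0.39, and -4.47 without that array), Rgcc (-3.70 ± 0.20) and Esm1, a secreted product of sprouting tips (-2.28 ± 0.12). Kdr, encoding VEGFR-2 (-0.11 ± 0.09), and Btnl9 (-0.01 ± 0.14) were not called. Of 18 venous genes 12 were lower and 3 higher (median -0.81): Selp, the selectin stored with von Willebrand factor, read 11.45, 10.98 and 11.32 in BEC and 6.88 ± 0.10 (SD, n = 3) in cap LEC (-4.37 ± 0.17), whereas Nr2f2 and Lbp (2.13 ± 0.10) were higher in cap LEC. Of 24 arterial genes 15 were lower (median -0.93), among them Mgp (-3.95 ± 0.26), Gkn3 (-2.71 ± 0.33) and Sema3g (-2.46 ± 0.18), and 7 were higher (4 without the second cap LEC or the first BEC array), led by Stmn2 (2.23 ± 0.16) and Fbln5 (1.15 ± 0.13). Pan-endothelial genes were not equal between the groups: 19 of 30 were lower in cap LEC and 4 higher (2 without the second BEC, the second cap LEC or the third cap LEC array). Vwf, encoding von Willebrand factor, differed by -4.06 ± 0.16, Cd34 by -4.36 ± 0.27, Cd93 by -3.62 ± 0.14 and Nos3, the endothelial nitric oxide synthase, by -1.84 ± 0.12. Cdh5, the junctional cadherin of all endothelium, differed by -0.44 ± 0.08, and Tie1 (0.22 ± 0.11) and S1pr1 (-0.09 ± 0.08) were not called. The mural markers given above were lower on the same side as these lists, and their part in them was not tested.

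**Figure D3:**
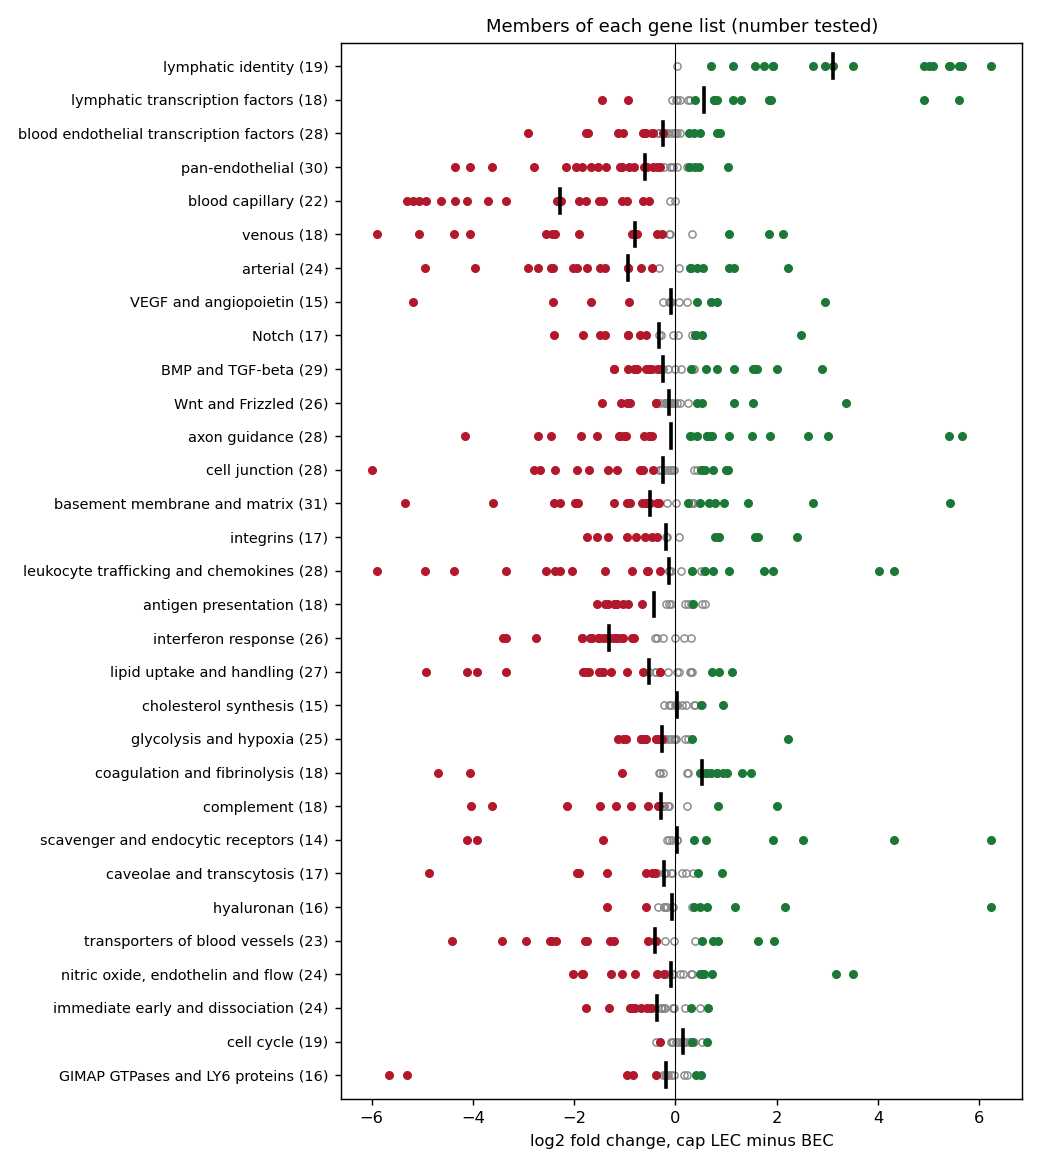
Difference between cap LEC and BEC (log2 scale) of each tested member of the gene lists other than the sort genes and the markers of other cells, with the number tested in brackets. Filled green points were called higher, filled red points called lower and open points not called, and black bars are list medians. Lymphatic identity (median 3.12) and blood capillary (median -2.27) have the medians furthest from 0 among the lists drawn.

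In the VEGF family the 3 receptor tyrosine kinases separated, with Flt4 higher, Kdr not called and Flt1 lower. Vegfc, the ligand of VEGFR-3, read 8.61, 9.05 and 9.24 in BEC and 6.60, 6.48 and 6.61 in cap LEC, so the ligand transcript was higher in the blood cells (-2.41 ± 0.16, adjusted p = 2.86e-07). Vegfa, the ligand of VEGFR-2, was not called (0.08 ± 0.14). Angpt2 was higher in cap LEC (0.83 ± 0.12), while the angiopoietin receptor gene Tek (-0.91 ± 0.15) and Ptprb, the phosphatase that restrains it (-1.66 ± 0.07), were lower. Counting all 15 members tested, 4 were called in each direction.

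Notch genes were split as well, with 8 of 17 lower and 4 higher (2 without the first BEC array or any 1 of the cap LEC arrays). Notch2 read 10.01, 10.37 and 10.35 in cap LEC and 7.75, 7.82 and 7.72 in BEC (2.48 ± 0.11, adjusted p = 1.02e-08). Of the other receptors, Notch4, a mainly endothelial receptor, differed by -1.49 ± 0.08, Notch3, a mural cell receptor, by -1.82 ± 0.11, and Notch1 by 0.38 ± 0.12 (adjusted p = 0.0382, from 0.0568 to 0.117 without any 1 of the 6 arrays, and 0.27 after cyclic loess between arrays). The ligand genes Dll4 and Jag1, each at -0.93, and Jag2, at -1.40 ± 0.07, were lower, whereas the ligand gene Dll1 was not called (-0.04 ± 0.16). Lower too was Mfng, a glycosyltransferase that modifies Notch receptors (-2.40 ± 0.17).

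In the TGF-beta and BMP family 9 of 29 genes were higher and 12 lower. The ligands Tgfb3 and Tgfb2 were higher in cap LEC, Tgfb3 at 12.13, 12.25 and 12.20 against 9.56, 9.15 and 9.18 (2.90 ± 0.13) and Tgfb2 by 1.57 ± 0.12, and so was their type II receptor Tgfbr2 (1.61 ± 0.10). Genes of the BMP branch were called in both directions. Lower were the ligands Bmp6 (-1.22 ± 0.15) and Bmp4 (-0.75 ± 0.14), the receptor Acvrl1, also called ALK1 (-0.77 ± 0.11), the co-receptor Eng (-0.82 ± 0.12), the inhibitor Smad7 (-1.22 ± 0.11) and the targets Id1 and Id3 (-0.59 ± 0.12). Higher were Gdf10, a BMP-related ligand (1.54 ± 0.23), the target Id2 (1.15 ± 0.17) and the signal transducers Smad1 (0.83 ± 0.09) and Smad5 (0.61 ± 0.12). The receptor genes Acvr1, Acvr2a and Acvr2b, the transducer Smad9 and the regulator Bmper were not called. Bmp2k, listed for its name, encodes a kinase induced by BMP2 and not a core member (2.01 ± 0.11). Of 26 Wnt genes 15 were not called, 5 were higher and 6 lower (3 without the third array of either group). Over all genes tested 11.1% were called higher and 9.54% lower. Rspo3, a secreted amplifier of Wnt signals, was the exception in size at 8.71, 8.63 and 9.19 in cap LEC and 5.39, 5.62 and 5.40 in BEC (3.37 ± 0.17), followed by Dkk3 (1.53 ± 0.13) and the feedback inhibitor Nkd1 (1.15 ± 0.14). The BEC values of Rspo3 lay below their array medians. Its first and second cap LEC values lay below the 95th percentile of the negative control rows. Fzd4, a receptor needed for retinal vessels, was lower (-1.07 ± 0.15).

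Axon guidance genes were called in both directions, with 13 of 28 higher, 14 lower and 1, Ephb4, not called. Besides Reln and Sema3d, cap LEC held more Sema3a (9.54, 9.31 and 9.68 against 6.35, 6.29 and 6.87, a difference of 3.01 ± 0.15), more Ntn1, the netrin that guides axons (2.61 ± 0.14), Efna5 (1.87 ± 0.19) and the semaphorin receptor gene Plxna4 (1.51 ± 0.10). BEC held more Sema7a, a membrane-anchored semaphorin, at 11.61, 11.66 and 11.32 against 7.59, 7.21 and 7.32 (-4.16 ± 0.15, adjusted p = 2.42e-09). Epha4 (-2.72 ± 0.21), Sema3g, Efnb1 (-1.87 ± 0.18) and Plxnd1, the receptor for class 3 semaphorins on blood vessels (-1.55 ± 0.14), were lower in cap LEC too. Secreted class 3 semaphorins therefore went both ways, with Sema3a, Sema3d and Sema3f higher and Sema3g lower.

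Of 28 junction genes tested, 11 were lower, 6 higher and 11 not called. Claudin genes split into Cldn5, the main endothelial claudin, at 13.38, 13.49 and 13.36 in cap LEC and 12.01, 12.59 and 12.52 in BEC (1.04 ± 0.13), Cldn11 (0.74 ± 0.14) and, in the other direction, Cldn15 (-1.70 ± 0.17). Of the immunoglobulin-type adhesion molecules, Nectin2 (1.00 ± 0.14) and F11r, which encodes JAM-A (0.58 ± 0.12), were higher, Nectin3 was not called (-0.08 ± 0.09), and Jam2, Jam3 (-2.38 ± 0.20) and Esam (-2.79 ± 0.17) were lower. The connexin Gja4 was higher (0.54 ± 0.10) and Gja5 lower (-1.95 ± 0.33). Cdh2, the N-cadherin that links endothelium to pericytes, and Pcdh1 were lower, at -1.15 ± 0.14 and -2.67 ± 0.09.

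Basement membrane and matrix genes were lower in cap LEC for 17 of 31 and higher for 8. The laminin alpha chains parted, with Lama4 higher (0.79 ± 0.13) and Lama5 (-1.98 ± 0.13) and Lama3 (-1.93 ± 0.14) lower. Col18a1 and Col15a1 are the 2 collagens that release endostatin-type fragments. Col18a1 was higher at 10.40, 10.57 and 10.52 against 8.83, 9.27 and 9.10 (1.43 ± 0.13), whereas Col15a1 read 7.54, 7.26 and 7.03 in cap LEC and 10.71, 11.04 and 10.91 in BEC (-3.61 ± 0.13). Of the multimerins, Mmrn1 was higher and Mmrn2 lower (-1.97 ± 0.11). The main basement membrane collagens Col4a1 (-0.58 ± 0.12) and Col4a2 (-0.95 ± 0.18), perlecan, encoded by Hspg2 (-1.22 ± 0.16), and Sparc (-2.40 ± 0.16) were lower, and fibronectin, Fn1 (0.95 ± 0.11), and tenascin-X, Tnxb (2.72 ± 0.10), were higher. Pericytes make several of these proteins, and their markers moved with BEC as given above. Integrin genes, the receptors for this matrix, were higher for 6 of 17 and lower for 8 (5 without the third array of either group). Itgb3 (2.40 ± 0.12), its partner Itgav (1.63 ± 0.12) and Itga9, a receptor needed for lymphatic valves (1.57 ± 0.11), were higher. Itgb5 (-1.75 ± 0.12), Itga2 (-1.55 ± 0.17), Itga7 (-1.34 ± 0.12) and the laminin receptor Itga6 (-0.95 ± 0.11) were lower, and Itgb1, the shared beta chain, was not called (0.08 ± 0.09).

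Genes for leukocyte traffic were higher for 8 of 28 and lower for 13. Of the molecules that capture leukocytes from blood, Sele, Selp, Vcam1 (-2.38 ± 0.26), Icam1 (-0.86 ± 0.14) and Cx3cl1 (-1.40 ± 0.16) were lower, and Madcam1 was not called (-0.13 ± 0.11). Atypical chemokine receptors, which clear or move chemokines without G protein signalling, were divided. Ackr2 read 9.76, 9.33 and 9.17 in cap LEC and 7.50, 7.83 and 7.72 in BEC (1.74 ± 0.19), and Ackr3 was higher too (1.06 ± 0.17), while Ackr1, the venular form, was lower (-2.55 ± 0.24). Cxcl12, the ligand that Ackr3 clears, and its signalling receptor Cxcr4 were both lower in cap LEC (-3.34 ± 0.17 and -4.94 ± 0.19). Spns2, the exporter of sphingosine-1-phosphate that lymphocytes follow, was higher (0.75 ± 0.14). Cd274, the checkpoint ligand PD-L1, was lower (-2.04 ± 0.21). Ccl21a, the main lymphatic chemokine for dendritic cells, was not analysed here, since each row that names it also names near-identical copies.

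Of 32 interferon response genes listed, 26 were tested, 20 were lower in cap LEC and none higher, with a median of -1.31 beside -0.026 for all genes. In the 15 alternative fits 19 to 21 were lower, and in 5 of them 1 member, Ifitm2, was called higher. Rsad2, an antiviral enzyme, read 9.54, 9.66 and 9.46 in BEC and 5.96, 6.21 and 6.46 in cap LEC (-3.34 ± 0.26, adjusted p = 1.51e-06). Trim30a, an interferon-induced ligase, read 9.42, 9.84 and 9.38 against 6.47, 6.01 and 5.91 (-3.41 ± 0.19). The groups did not overlap for either gene. Iigp1, an immunity-related GTPase (-2.76 ± 0.28), Irf7, which amplifies the interferon response (-1.85 ± 0.10), Gbp4 (-1.84 ± 0.17), Ifih1, a sensor of viral RNA (-1.68 ± 0.15), and Ifit1 (-1.65 ± 0.38) followed. Igtp was called at -1.04 ± 0.32 but lost its call in 10 of 15 alternative fits. The 6 members Ifitm2 (0.30 ± 0.10), Ifitm3 (0.16 ± 0.10), Ifit2 (-0.01 ± 0.19), Bst2 (-0.25 ± 0.09), Irf9 (-0.36 ± 0.13) and Xaf1 (-0.40 ± 0.19) were not called. The mean over the 26 genes was 7.98 ± 0.03 (SD, n = 3) in cap LEC and 9.25 ± 0.03 in BEC, and 7.99 ± 0.17 in pre-col LEC and 7.98 ± 0.06 in col LEC, so all 3 lymphatic groups lay together. Mural marker levels moved with it between cap LEC and BEC. Within cap LEC the first array had the highest mural mean (7.50 against 7.03 on the second), while the interferon means of the 3 arrays differed only by the SD of 0.03 given above. Within BEC the mural means were 9.23, 9.35 and 9.12 and the interferon means 9.28, 9.23 and 9.25. The first pre-col LEC array, with the highest mural mean of the lymphatic arrays (8.20), had an interferon mean of 8.16, against 7.99 and 7.81 on the other pre-col LEC arrays with mural means of 7.46 and 7.26. The part of mural cells in this difference was not tested.

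The promoters of these genes are shown as a description of the list. RefSeq promoter windows of GRCm38.p6, from 250 bases before to 50 after the start, were searched on both strands for GAAA, any 2 bases and GAAA again, the core letters of the interferon-stimulated response element to which STAT and IRF proteins bind. The letters occurred in the windows of 15 of the 21 interferon genes with a window (71.4%), of which Ifitm2, Ifitm3 and Bst2 were not called, against 422 of 12251 tested genes (3.44%) and 1131 of all 32851 windows (3.44%). They occurred in 13 of 340 genes at least 2-fold higher in cap LEC (3.82%) and in 35 of 426 at least 2-fold lower (8.22%). The 35 include members of the interferon list itself, among them Rsad2, Trim30a and Ifit1, so this share is not separate from that of the list. A match is a description of the letters and not a binding site. The list was chosen from known interferon response genes, so its share describes the list and not the difference between cap LEC and BEC. In the stretches below, written 5′ to 3′ along the gene's own strand, capitals mark the matches, GAAA on both sides of any 2 bases or, as its reverse complement, TTTC on both sides, and overlapping matches form 1 longer run of capitals. The first 2 belong to the genes with the largest differences.
Trim30a, chr7:104465194-104465269, minus strand: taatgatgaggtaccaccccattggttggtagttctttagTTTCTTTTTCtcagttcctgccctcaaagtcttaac
Rsad2, chr12:26456523-26456612, minus strand: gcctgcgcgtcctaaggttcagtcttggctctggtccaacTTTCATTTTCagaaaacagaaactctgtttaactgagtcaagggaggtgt
Ifit1, chr19:34640764-34640853, plus strand: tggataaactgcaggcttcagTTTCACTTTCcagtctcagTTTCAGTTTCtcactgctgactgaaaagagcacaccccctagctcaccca
Ifit3, chr19:34583367-34583456, plus strand: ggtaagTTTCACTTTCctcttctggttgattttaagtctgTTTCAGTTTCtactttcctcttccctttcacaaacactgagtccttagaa
Isg15, chr4:156200835-156200924, minus strand: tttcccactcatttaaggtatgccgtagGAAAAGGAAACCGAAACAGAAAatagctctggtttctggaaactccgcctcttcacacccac
Gbp3, chr3:142559965-142560043, plus strand: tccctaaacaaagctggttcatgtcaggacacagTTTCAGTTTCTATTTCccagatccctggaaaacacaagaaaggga

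Ifit1 and Ifit3, neighbours of one antiviral gene family, each held 2 separate matches in these stretches and differed by -1.65 ± 0.38 and -1.42 ± 0.13. Isg15, a ubiquitin-like modifier, held 3 overlapping matches and differed by -0.85 ± 0.14, less than Rsad2 and Trim30a with 1 match each. These counts cover only the printed stretches, which are a selection of the called genes with a match. The number of matches in whole windows was not compared with the size of the difference.

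**Figure D4:**
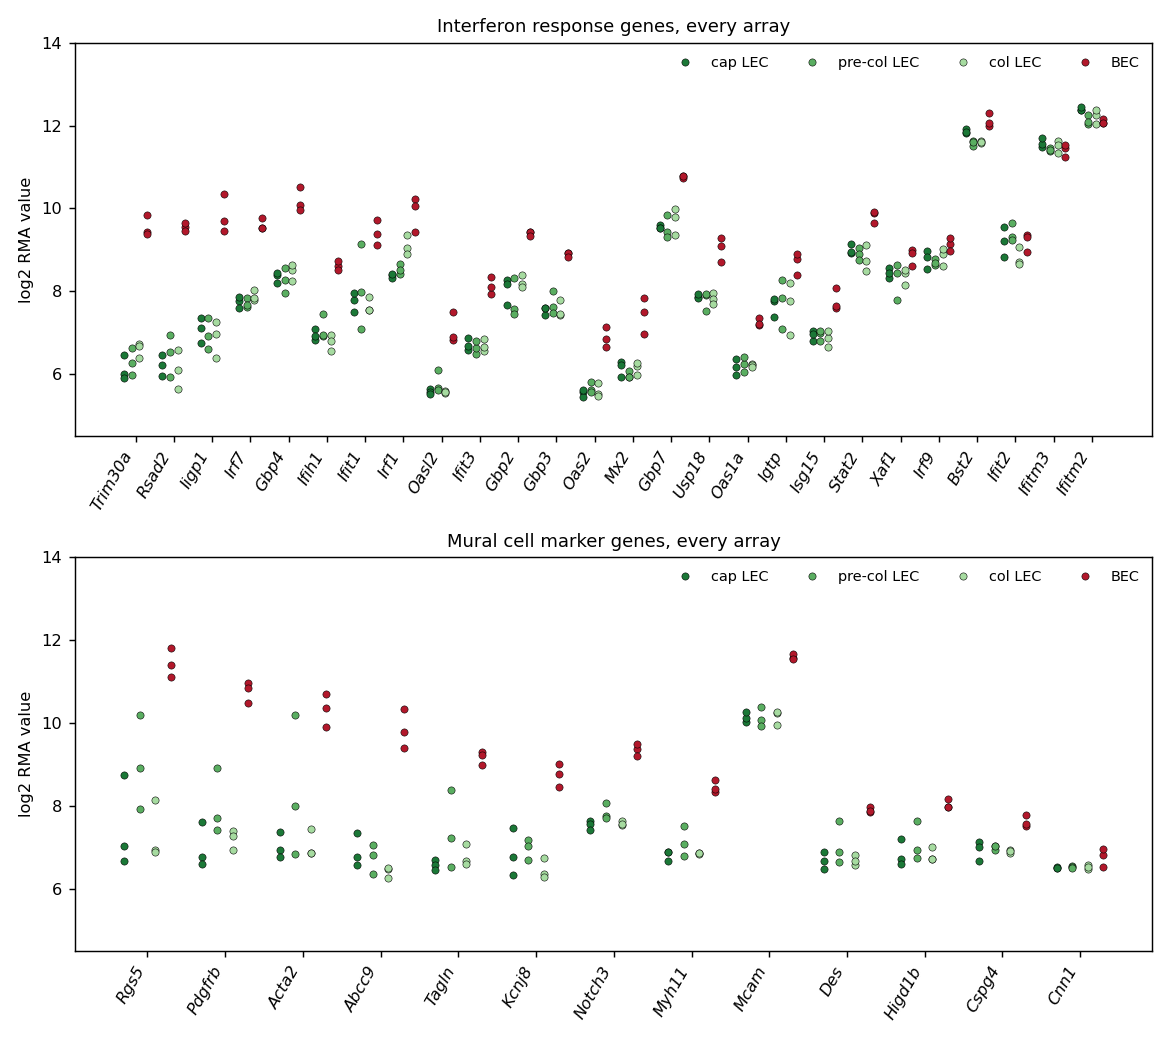
Log2 RMA values on each of the 12 arrays for the 26 interferon response genes tested (top) and the 13 mural cell markers tested (bottom); each point is 1 array, coloured by group. The BEC points lie above all LEC points except for Irf9, Ifit1, Ifit2, Ifitm2, Ifitm3 and Xaf1, and among mural markers the first pre-col LEC array comes close to the BEC level for Acta2.

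Of 18 antigen presentation genes 9 were lower in cap LEC, 1 higher and 8 not called. The 9 were Psmb8 (-1.55 ± 0.17), Psmb10 (-1.39 ± 0.16) and Psmb9 (-1.17 ± 0.12), which form the immunoproteasome, the peptide transporter genes Tap1 (-1.22 ± 0.19) and Tap2 (-0.66 ± 0.12), Tapbp (-0.93 ± 0.11), Erap1 (-1.34 ± 0.17), and the class I chains H2-K1 (-1.16 ± 0.09) and B2m (-1.04 ± 0.10). H2-K1 read 9.74, 9.89 and 9.73 in cap LEC and 10.95, 10.99 and 10.91 in BEC, without overlap. The chaperone gene Calr was higher (0.34 ± 0.09, adjusted p = 0.0157, 0.191 after cyclic loess and 0.0634 without the second cap LEC array). Class II genes H2-Aa, H2-Ab1 and H2-Eb1 were not called, and their only high values were on the first cap LEC array. On that array the dendritic marker Cd209a (7.24 against 6.25 and 6.09) and the myeloid gene Lyz2 (7.27 against 5.76 and 5.86) were also high.

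Of 27 genes of lipid uptake and handling 14 were lower in cap LEC, 3 higher and 10 not called. Gpihbp1, which anchors lipoprotein lipase on capillaries, differed by -0.96 ± 0.12 and Lpl, the lipase, by -1.43 ± 0.12. Larger differences were those of the fatty acid receptor Cd36, given above, and the binding proteins Fabp4 and Fabp5. Fabp4 read 11.87, 11.38 and 11.27 in BEC and 7.88, 6.09 and 5.79 in cap LEC, a difference of -4.92 ± 0.49 (-5.56 without the first cap LEC array). Fabp5 read 9.45, 9.65 and 8.87 against 6.13, 5.92 and 5.89 (-3.35 ± 0.17). Of the fatty acid carrier genes Slc27a3 was lower (-1.27 ± 0.12), and Slc27a1 (0.33 ± 0.12) and Slc27a4 (0.28 ± 0.14) were not called. Scarb1, described above, and Apoe (-1.82 ± 0.13) were lower, whereas Abca1, which loads cholesterol onto lipoprotein (0.86 ± 0.09), Vldlr (0.72 ± 0.13) and Apold1 (1.11 ± 0.10) were higher. Cholesterol synthesis stood at the background: of 15 genes 2, Pmvk (0.93 ± 0.15) and Sc5d (0.50 ± 0.15), were higher (1 without the first or the third cap LEC or the first BEC array) and none lower, with a median of 0.04.

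Transport genes known from blood vessels were lower for 13 of 23 and higher for 5. Abcb1a, the drug efflux pump P-glycoprotein, read 10.96, 10.51 and 10.34 in BEC and 6.45, 6.11 and 6.03 in cap LEC (-4.41 ± 0.15, adjusted p = 2.15e-09), and its copy Abcb1b differed by -2.48 ± 0.19. Slc7a5, a carrier of large amino acids (-1.22 ± 0.11), Slc6a6, the taurine carrier (-1.78 ± 0.12), and Slco2a1, the prostaglandin carrier (-2.44 ± 0.19), were lower. The related carriers Slco3a1 (1.64 ± 0.08) and Slco2b1 (0.84 ± 0.09) were higher, as was Slc19a3, a thiamine carrier (1.94 ± 0.23). Slc2a1, the glucose carrier of the blood-brain barrier, differed by -0.38 ± 0.11. The water and glycerol channel genes Aqp1 (-1.94 ± 0.10) and Aqp7 (-4.87 ± 0.16) were both lower, and Plvap, the diaphragm protein of fenestrae and caveolae, was lower at 9.11, 9.74 and 9.89 against 10.96, 11.92 and 11.57 (-1.90 ± 0.28). Of 17 caveolae and transcytosis genes, a list that holds Aqp1, Aqp7 and Plvap, 7 were lower and 2 higher. Their mean level was 9.77 ± 0.06 (SD, n = 3) in cap LEC and 10.38 ± 0.07 in BEC. Ehd4, an ATPase that shapes membranes (-1.35 ± 0.09), the caveolar coat genes Cav1 (-0.46 ± 0.08) and Cavin1 (-0.41 ± 0.08) and Dysf, a membrane repair protein (-0.58 ± 0.17, lost in 6 of 15 alternative fits), were the other lower members. Pacsin2, which bends membranes, was higher (0.92 ± 0.09), as was Pacsin3 (0.45 ± 0.12, not called without the first or the second cap LEC or the second BEC array), while Cav2 (-0.37 ± 0.13), Cavin2 (-0.08 ± 0.10) and Cavin3 (0.13 ± 0.10) were not called.

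Scavenger and endocytic receptors were divided. Of 14 tested, 6 were higher and 3 lower. Mrc1, the mannose receptor, read 10.29, 10.02 and 10.03 in cap LEC and 5.79, 5.75 and 5.84 in BEC (4.32 ± 0.15), Colec12, a collectin receptor, differed by 2.51 ± 0.12, and Stab1 and Lyve1 were higher as given above. Scarb1, Cd36 and Lrp1, a large lipoprotein receptor (-1.43 ± 0.27), were lower. Mrc1 also marks macrophages, and 8 of the other 9 macrophage markers tested were not called. The 2 hyaluronan receptors Lyve1 and Cd44 went in opposite directions: Cd44 read 6.34, 6.02 and 5.92 in cap LEC and 7.47, 7.35 and 7.53 in BEC (-1.35 ± 0.11). Of 16 hyaluronan genes 6 were higher (3 without the first BEC array) and 2 lower.

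Of 18 coagulation genes 10 were higher in cap LEC and 3 lower, with a median of 0.53; without the filter on dim genes 10 of 22 were higher and 5 lower, with a median of 0.24. Their mean level had the opposite sign, at 8.85 ± 0.02 (SD, n = 3) in cap LEC and 8.92 ± 0.05 in BEC, with Vwf and Entpd1 the members furthest from 0. F8, encoding factor VIII, read 7.94, 7.35 and 7.80 in cap LEC and 6.18, 6.22 and 6.21 in BEC (1.49 ± 0.18, adjusted p = 6.08e-05), while Vwf, its carrier in plasma, was on the BEC side. Of anticoagulant genes, Tfpi (0.83 ± 0.11) and Pros1 (0.93 ± 0.12) were higher, and Thbd, thrombomodulin (-1.05 ± 0.13), and Entpd1, the ectonucleotidase CD39 (-4.69 ± 0.22), were lower. The thrombin receptor F2r (1.31 ± 0.12) and the urokinase receptor Plaur (1.02 ± 0.19) were higher. Complement genes were lower for 9 of 18 and higher for 2. Cd55, which shields cells from complement, read 10.56, 10.44 and 10.40 in cap LEC and 8.59, 8.65 and 8.13 in BEC (2.01 ± 0.12), whereas Cd59a, a second shield, was lower (-1.48 ± 0.33). C1s1 (-2.15 ± 0.25) and Cfb (-1.18 ± 0.13), proteases of the classical and alternative pathways, were lower. C1qtnf9 (-4.04 ± 0.18) and Cd93, listed for their resemblance to C1q or its receptor, are not complement components.

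Genes for vascular tone and flow sensing were higher for 6 of 24 and lower for 8. Nos3, Edn1, the vasoconstrictor endothelin 1 (-2.02 ± 0.14), its receptor Ednrb (-1.28 ± 0.14) and Pdgfb, the growth factor that recruits pericytes (-1.83 ± 0.11), were lower. Pdgfb read 8.13, 7.93 and 7.74 in cap LEC and 9.90, 9.70 and 9.67 in BEC, the same direction as its receptor Pdgfrb among the mural markers. Piezo2 was higher in cap LEC, whereas its relative Piezo1, a flow sensor of endothelium, was not called (0.32 ± 0.10, adjusted p = 0.0501). Kcnn3, a calcium-activated potassium channel, was higher (3.18 ± 0.10) and Kcnn4 lower (-0.80 ± 0.14). Kit, the receptor of the Kitl product, was on the mast cell list and read 9.11, 9.48 and 9.16 in BEC and 7.11, 7.19 and 6.99 in cap LEC (-2.16 ± 0.17), while the other 2 mast cell genes tested were not called.

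Of 25 glycolysis and hypoxia genes 10 were lower and 2 higher (1 without the second or the third cap LEC or the first BEC array). Egln3, an oxygen-sensing hydroxylase, was the large one at 10.66, 10.80 and 10.56 in cap LEC and 8.34, 8.48 and 8.53 in BEC (2.23 ± 0.11), and Pfkfb3, an activator of glycolysis (-1.04 ± 0.24), Ldha (-0.68 ± 0.09) and Hif1a (-0.67 ± 0.11) were lower. Immediate early genes, which respond to tissue dissociation, were lower for 9 of 24 and higher for 2 (1 without the second or the third cap LEC, or the first or the third BEC array). Their mean level was 9.57, 9.53 and 9.69 in cap LEC and 10.11, 9.83 and 10.06 in BEC. Nr4a1 (-1.76 ± 0.20) and Fosl2 (-1.32 ± 0.12) differed most, and Fos (0.19 ± 0.14) and Jun (-0.05 ± 0.10) were not called. Of 19 cell cycle genes 16 were not called, where 20.6% of all genes tested were called. The calls of Cdc20 and Tyms as higher were both lost without any 1 of the 6 arrays other than the second BEC array.

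Some differences between cap LEC and BEC were shared by other lymphatic cells and some were not. In col LEC, against cap LEC, 307 of 19673 genes were called (1.56%), and in pre-col LEC none (0%). These contrasts share the cap LEC arrays with the main one, so only each gene's own values are given. Prox1, Tc2n and Il7 stayed at the cap LEC level in col LEC, with col LEC minus cap LEC differences of 0.01, -0.02 and -0.22. Mrc1 fell to 8.45, 7.99 and 8.25 in col LEC, between cap LEC and BEC (-1.88 ± 0.15 against cap LEC, adjusted p = 8.49e-05). Serpina3n, a protease inhibitor from a family of close copies, likewise read 8.76, 8.99 and 9.71 in col LEC, 10.87, 11.07 and 10.88 in cap LEC and 7.06 ± 0.07 (SD, n = 3) in BEC, and Pcsk6, a proprotein convertase, differed by 3.66 ± 0.12 from BEC and by -0.82 ± 0.12 in col LEC from cap LEC. Among genes lower in cap LEC, Cd93, a receptor of endothelial adhesion, read 8.76, 8.32 and 8.70 in cap LEC, 10.30, 10.41 and 10.21 in col LEC and 12.21 ± 0.19 (SD, n = 3) in BEC. Epha4, Shroom4 and Bcam, a laminin receptor, were ordered in the same way, with col LEC above cap LEC by 1.56 ± 0.21, 0.80 ± 0.14 and 0.79 ± 0.12. Pkhd1l1 and Cxcl12 did not lie between: Pkhd1l1 was higher in col LEC than in cap LEC (0.92 ± 0.20, adjusted p = 0.0466) and Cxcl12 lower (-0.77 ± 0.17, adjusted p = 0.046), each further from BEC.

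**Figure D5:**
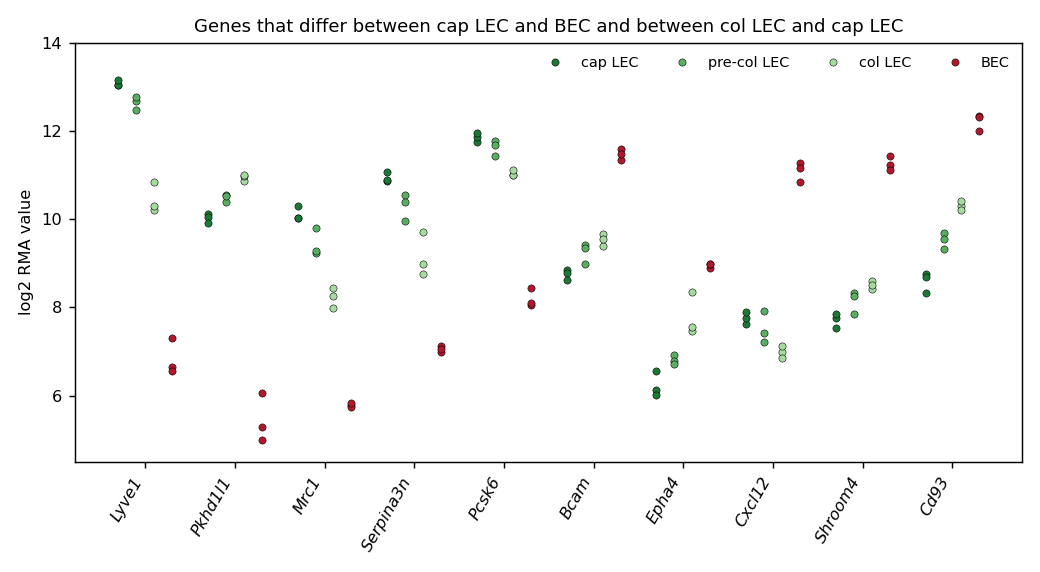
Log2 RMA values on all 12 arrays for 10 genes called both between cap LEC and BEC and between col LEC and cap LEC, the top 5 by size in each direction; each point is 1 array, coloured by group. Lyve1, Mrc1, Serpina3n and Pcsk6 step down from cap LEC through col LEC to BEC, Cd93, Epha4, Shroom4 and Bcam step up, and Pkhd1l1 and Cxcl12 lie further from BEC in col LEC than in cap LEC.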

How the data were processed

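RNA of 12 sorted samples, 3 in each of 4 groups, was measured on an Affymetrix whole-transcript mouse array. The values are log2 intensities that the authors deposited after RMA (background correction, quantile normalization and probe summary), per the submitters' processing notes; no source used here gives a software version or an annotation build. RMA pulls dim signals together, so folds of dim genes are compressed, and no detection call was used. Precision is limited by 3 arrays a group.

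Of 72688 rows, 65956 were transcript clusters and 31095 of these named 1 gene through the platform annotation (843 symbols updated by gene ID). The brightest row stood for each of 30637 genes, and 19673 genes above the array's median transcript cluster on at least 3 arrays were tested. limma 3.58.1 in R 4.3.3 fitted the 4 group means over all 12 arrays (lmFit, eBayes; 8 residual and 3.626 prior degrees of freedom), with 2-sided p-values adjusted by Benjamini-Hochberg. The fit was tested on simulated data. The members of the comparison and the gene lists were chosen with earlier results of these data known. Named genes were the sort genes, the 15 largest called differences and 5 largest moderated statistics in each direction, list members, and the 5 largest in each direction that were also called in col LEC minus cap LEC. These rankings took only genes called without overlap between the cap LEC and BEC arrays. They left out predicted genes, small RNAs, olfactory, vomeronasal and taste receptors and immune receptor segments.

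Promoter sequences are RefSeq's for GRCm38.p6; 12251 of the genes tested had a window. Alternatives were other samples in the fit, normalizations, filters, row choices, variance priors, array weights, a replicate block, a minimum fold and leaving out each array.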

Additional observations from a re-analysis of the deposited data

Results flagged for a closer look

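Of 15331 tested rows that name no gene or several genes, and that the comparison of named genes does not use, 1123 were called between cap LEC and BEC by limma (7.33%), 624 higher and 499 lower in cap LEC. The largest difference towards cap LEC was 6.13 ± 0.22 (SE), for the row TC0400002487.mm.1 and, with the same values, for TC4_JH584293_random00000010.mm.1. Towards BEC the row TC1400001972.mm.1 differed by -6.08 ± 0.41 and TC1500001728.mm.1 by -5.25 ± 0.71. These rows were left unnamed.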

How the results depend on the processing

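The count of 4050 called genes lay between 2979 and 4420 under 15 alternatives, and between 2979 and 4216 when 1 array was left out. Testing against a log2 change of 0.5 in place of 0 left 1075 genes, 479 higher and 596 lower, as that stricter question must. The count of at least 2-fold genes stayed between 960 and 1111, and between 1048 and 1111 without 1 array. Of unnamed rows, 723 were called with the 6 arrays fitted alone, 427 higher and 296 lower. With the replicate block 4042 genes (2226 higher, 1816 lower), 1080 at least 2-fold genes and 998 unnamed rows were called. Same-numbered cap LEC and BEC arrays correlated at 0.08, 0.161 and -0.03 in their deviations from the group mean. The highest correlations of those cap LEC arrays with a BEC array of another number were 0.044, -0.02 and 0.021. With 3 arrays per group these values cannot show whether the numbers pair the samples. Cyclic loess called 1722 higher and 1999 lower genes, and median centring 2993 and 1427. Of 407 called genes followed, 338 kept call and direction in all 15 fits, 69 lost the call in at least 1 and none reversed; 69 of 268 genes not called were called in at least 1. The median over all genes ran from -0.047 to 0.055, so small differences in lists near 0 have no firm direction: the VEGF list median of -0.08, the cell cycle median of 0.15, and the scavenger and hyaluronan medians of 0.04 and -0.06 changed sign in at least 1 fit. With 3 arrays per group, 500 pg of input RNA and rows near the array median, precision is limited.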
